A study of Mus musculus with 2 samples.

Results

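Wnt genes encode secreted lipid-modified signals, and the 52 genes described here are the Wnt ligands, their receptors, their secreted inhibitors and the core of the intracellular pathway. They were chosen by name, matched by gene symbol to the identifiers in the deposited tables, and all 52 were found among 43346 genes with an Ensembl identifier. By role they were 17 Wnt ligands, 10 Frizzled receptors, 5 co-receptors or other Wnt receptors, 6 secreted inhibitors, 5 R-spondins or R-spondin receptors, 5 genes of beta-catenin and its destruction complex, and 4 nuclear effectors. The choice rule used no level or ratio, although earlier results of these data were known when it was made.

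The tissue was hindbrain, the region that forms the medulla, pons and cerebellum, from B6NCrl mouse embryos at day 16.5 of development, with no allele or treatment named. There were 2 biological replicates of this single group, each a pool of male and female embryos. The labels count 37 embryos for replicate 2 and give no number for replicate 1. Libraries were made from 10 ng of RNA longer than 200 bases. A single group allows no contrast between conditions, and a ratio with 1 library on each side allows no test, so no p is given.

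When no Wnt is bound, cytoplasmic beta-catenin is held low by a destruction complex that contains Axin, Apc and Gsk3b. Binding of a Wnt to a Frizzled receptor and to Lrp5 or Lrp6 halts that complex, and beta-catenin then enters the nucleus and acts with Tcf and Lef factors. Ror and Ryk receptors carry other Wnt signals, Sfrp proteins bind Wnts, Dkk1 and Dkk2 act on Lrp5 and Lrp6, and R-spondins with Lgr receptors keep Frizzleds at the cell surface. In the embryonic hindbrain the pathway is known for patterning of the midbrain-hindbrain boundary and dorsal midline, for axon guidance, and for growth of brain vessels.

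For 5 members, Lgr4, Lef1, Axin1, Tcf7l1 and Lrp6, transcripts with at least 10% of the gene's TPM differ by a whole coding exon, and the gene levels below sum over both forms. The exons of 4 are shown, those whose length is a multiple of 3. The Lrp6 exon, of 394 bases, is not a multiple of 3 and is described with the values. Each runs 5′ to 3′ on the gene's strand, with the exon in capitals and 15 bases of the adjoining coding exons in lower case, read from GENCODE M21 transcripts on GRCm38. Their positions are chr2:109970692-109970763 on the plus strand for Lgr4, chr3:131191023-131191106 on the plus strand for Lef1, chr17:26192516-26192623 on the plus strand for Axin1 and chr6:72648801-72648842 on the minus strand for Tcf7l1.
Lgr4: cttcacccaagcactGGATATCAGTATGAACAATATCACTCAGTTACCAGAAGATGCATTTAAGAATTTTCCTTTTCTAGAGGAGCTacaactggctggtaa
Lef1: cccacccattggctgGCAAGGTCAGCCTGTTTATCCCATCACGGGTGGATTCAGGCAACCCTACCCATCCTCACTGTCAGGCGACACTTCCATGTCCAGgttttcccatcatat
Axin1: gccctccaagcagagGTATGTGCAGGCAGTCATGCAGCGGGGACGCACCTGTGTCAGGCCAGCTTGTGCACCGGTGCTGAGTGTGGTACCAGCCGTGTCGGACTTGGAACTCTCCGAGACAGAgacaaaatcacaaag
Tcf7l1: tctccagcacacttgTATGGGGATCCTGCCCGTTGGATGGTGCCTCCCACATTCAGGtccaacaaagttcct
The exons shown are 72, 84, 108 and 42 bases long, so the reading frame is the same with and without them.

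Of the 52 members, 42 reached 1 TPM in both libraries, which is 80.8%, against 63.5% of 21474 protein-coding genes. TPM is a relative abundance of transcripts corrected for transcript length, so levels of different genes can be set side by side. The range was wide: 11 members reached 10 TPM and 2 reached 100 TPM in both libraries, while Wnt8b and Wnt10b were near 0. The median mean level was 3.36 TPM over the 52 members and 5.82 TPM over all protein-coding genes. Among the genes at 1 TPM or more in both libraries, the median was 5.82 TPM for the members and 19.5 TPM for protein-coding genes. Total expected counts were 42467811 for replicate 1 and 42017008 for replicate 2.

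**Figure D1:**
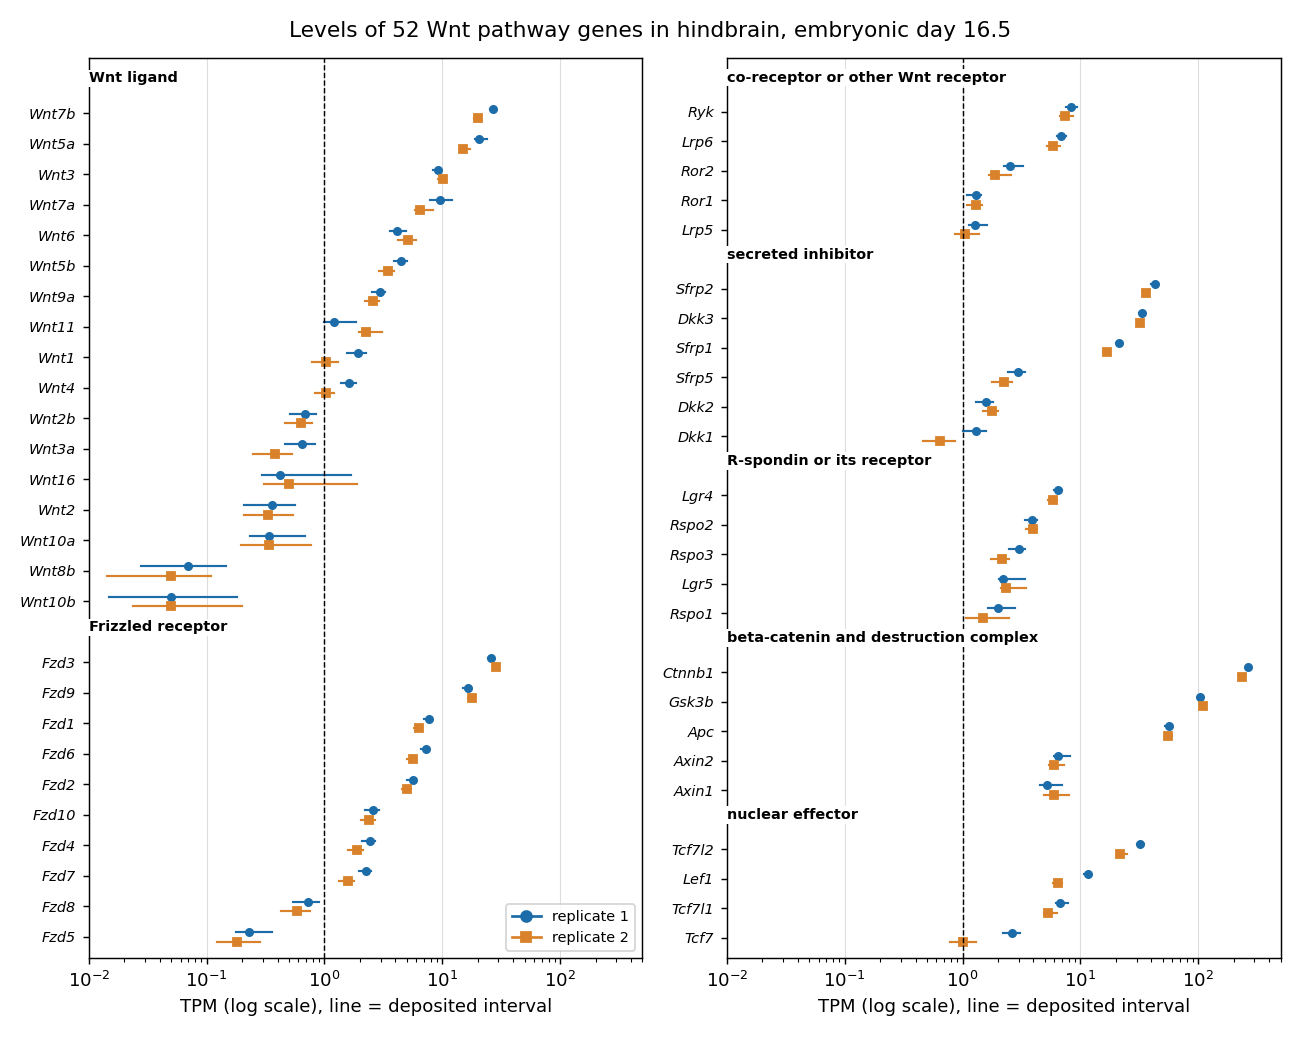
TPM of each of the 52 members on a log axis, by role, with replicate 1 as circles, replicate 2 as squares, the deposited interval of each library as a line and 1 TPM as the dashed line. Ctnnb1 stands highest at 266 and 237 TPM, and 7 of the 17 Wnt ligands lie below 1 TPM in both libraries.

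Wnt7b and Wnt5a were the most abundant ligands. Wnt7b, a canonical ligand known for its part in brain vessel growth, was at 27.2 TPM in replicate 1 and 20.1 in replicate 2. Wnt5a, which signals mostly without beta-catenin, was at 20.3 and 14.9 TPM. Replicate 1 was the higher library for both, and the deposited intervals of the libraries did not overlap for either gene. Wnt7b exceeded Wnt5a 1.34-fold in each replicate, with intervals apart in both libraries.

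Wnt3 followed at 9.27 and 10.2 TPM and Wnt7a, a paralog of Wnt7b, at 9.50 and 6.52 TPM. Their order changed between libraries and their intervals overlapped in replicate 1, so Wnt3 and Wnt7a were not separated by gene level. In replicate 2 their intervals were apart, with Wnt3 higher. Wnt6 was at 4.14 and 5.14 TPM, Wnt5b at 4.48 and 3.46, and Wnt9a at 2.96 and 2.58. Of these, Wnt5b had intervals that did not meet between libraries, with replicate 1 higher.

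Among the 10 detected ligands, the 3 lowest had the largest ratios between libraries. Wnt1, the signal of the midbrain-hindbrain boundary and dorsal midline, was at 1.94 TPM in replicate 1 and 1.04 in replicate 2. Wnt4 was at 1.63 and 1.03 TPM. Wnt11, which like Wnt5a signals mostly without beta-catenin, was the reverse, at 1.21 and 2.24 TPM. Wnt1 and Wnt4 were thus higher in replicate 1 and Wnt11 in replicate 2, each with deposited intervals apart.

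The 7 ligands that stayed below 1 TPM had mean levels of 0.655 TPM for Wnt2b, 0.51 for Wnt3a, 0.46 for Wnt16, 0.345 for Wnt2, 0.34 for Wnt10a, 0.06 for Wnt8b and 0.05 for Wnt10b. Wnt10b rested on 2 and 3 counts and Wnt8b on 6 and 4, so their levels are set by a handful of reads. Of the 16 steps between neighbours in the ligand order, 5 were separated, meaning that in each library the deposited intervals of the neighbours did not meet, and in the same order. These were the steps from Wnt7b to Wnt5a, Wnt5a to Wnt3, Wnt5b to Wnt9a, Wnt4 to Wnt2b and Wnt10a to Wnt8b. The other steps are not resolved by gene level.

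Several Wnt genes lie beside each other on the genome, and neighbours differed in level. The annotation names 19 Wnt genes, of which Wnt8a and Wnt9b are not members, and 4 pairs lie within 100 kb. Wnt10b (chromosome 15, 98770712 to 98778150) and Wnt1 (98789857 to 98793837) are 11.7 kb apart on opposite strands. Wnt1 had a mean of 1.49 ± 0.636 TPM (SD, n = 2) from 111 and 61 counts, and Wnt10b was at 0.05 TPM in each library from 2 and 3 counts. Wnt9b and Wnt3, on chromosome 11, are 24.3 kb apart, and Wnt9b was at 0.47 and 0.45 TPM, so that Wnt3 was 21.1 times higher. Wnt6 and Wnt10a are 6.19 kb apart on the same strand of chromosome 1 and differed 13.6-fold. Wnt3a and Wnt9a are 16.2 kb apart on chromosome 11 and differed 5.43-fold. In all 4 pairs the deposited intervals of the neighbours were apart in both libraries.

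Fzd3 and Fzd9 led the Frizzled receptors, the seven-pass membrane proteins that bind Wnts. Fzd3, known for its part in axon guidance, was at 25.9 TPM in replicate 1 and 28.8 in replicate 2, and Fzd9 was at 16.5 and 17.9 TPM. Both were higher in replicate 2, and only Fzd3 of the pair had deposited intervals apart between libraries. Fzd3 exceeded Fzd9 1.59-fold in the mean, and Fzd3 alone gave 38.6% of the summed Frizzled TPM.

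Fzd1 was at 7.72 and 6.36 TPM, Fzd6 at 7.30 and 5.62, and Fzd7 at 2.26 and 1.59, all higher in replicate 1 with intervals apart. The means of Fzd2, Fzd10 and Fzd4 were 5.33, 2.50 and 2.16 TPM. Fzd8 and Fzd5 stayed below 1 TPM, with means of 0.655 and 0.205. Of 9 steps in the Frizzled order 5 were separated, and Fzd1, Fzd6 and Fzd2 were not ranked among themselves, nor were Fzd10, Fzd4 and Fzd7.

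The other receptors were below Fzd3 and Fzd9, and their summed level was below that of the Frizzleds. Ryk, a receptor with an inactive kinase domain, was at 8.29 and 7.45 TPM. Lrp6, a co-receptor of the beta-catenin route, was at 6.81 and 5.88 TPM, and its paralog Lrp5 at 1.28 and 1.04. Ror2, a receptor tyrosine kinase that binds Wnt5a, was at 2.53 and 1.88 TPM, and Ror1 was at 1.29 in both libraries. Lrp6 exceeded Lrp5 5.32-fold in replicate 1 and 5.65-fold in replicate 2, with intervals apart in each. Every step of this order was separated except that from Ror1 to Lrp5. None of the 5 had deposited intervals apart between libraries.

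Among the members, secreted inhibitors had a larger summed level than the ligands, but only with Dkk3 counted among them. Sfrp2 was at 42.7 TPM in replicate 1 and 35.9 in replicate 2, Dkk3 at 33.5 and 32.2, and Sfrp1 at 21.4 and 16.8. Dkk3 is related to the Dkk proteins in sequence, and its action on Wnt receptors is less settled than that of Dkk1. Sfrp2 and Sfrp1 were higher in replicate 1 with intervals apart, and the intervals of Dkk3 overlapped. Sfrp5 had a mean of 2.60 TPM and Dkk2 of 1.67. Dkk1, which blocks Lrp5 and Lrp6, was at 1.30 and 0.65 TPM and so did not count as detected. An antisense gene, Gm26771, overlaps exons of Sfrp2 and was listed at 7.62 and 6.08 TPM. No source used here states whether counting used strand, so reads of the pair cannot be told apart.

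Among R-spondins and their receptors, Lgr4 was at 6.43 and 5.83 TPM and Lgr5 at 2.20 and 2.32. The ligand Rspo2 was at 3.92 and 3.99 TPM, Rspo3 at 2.99 and 2.15, and Rspo1 at 2.00 and 1.50. Rspo3 was higher in replicate 1, with deposited intervals apart, and the other 4 had intervals that overlapped. The steps from Lgr4 to Rspo2 and from Rspo2 to Rspo3 were separated, while Rspo3, Lgr5 and Rspo1 were not ranked among themselves.

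Beta-catenin and 2 partners of the destruction complex were the most abundant members. Ctnnb1, the beta-catenin gene, was at 266 TPM in replicate 1 and 237 in replicate 2. Gsk3b, the kinase that marks beta-catenin for degradation, was at 103 and 110 TPM, and Apc, a scaffold, at 56.1 and 56.0. Ctnnb1 was higher in replicate 1 and Gsk3b in replicate 2, with intervals apart, although the TPM of Gsk3b lay just outside its own interval in each library. The scaffolds Axin2 and Axin1 were far lower, at 6.43 and 5.98 TPM and at 5.25 and 5.99 TPM. Apc was 9.04 times Axin2 in the mean, and Axin1 and Axin2 were not separated. In coding transcripts alone, Apc was at 39.2 and 38.2 TPM and Axin2 at 5.66 and 5.04, a smaller fold. Ulk4, on the opposite strand, overlaps exons of Ctnnb1 and was listed at 4.63 and 3.67 TPM.

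Tcf7l2 was the most abundant nuclear effector, and all 4 effectors were higher in replicate 1, though not Tcf7l1 once counts were scaled by spike-in totals. Tcf7l2 was at 31.9 TPM in replicate 1 and 21.9 in replicate 2, Lef1 at 11.6 and 6.46, Tcf7l1 at 6.76 and 5.28, and Tcf7 at 2.63 and 1.01. The intervals were apart for Tcf7l2, Lef1 and Tcf7 and overlapped for Tcf7l1. Tcf7l2 was 2.99 times Lef1 in the mean and gave 61.5% of the summed TPM of the effectors. Lef1 and Tcf7l1 were not separated, and the steps above and below them were.

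Summed by role, the destruction complex set with beta-catenin came to 437 TPM in replicate 1 and 414 in replicate 2, which is 56.9% of the 52 members' TPM in the mean. The secreted inhibitors summed to 103 and 89.6 TPM, the Wnt ligands to 85.2 and 69.4, and the Frizzled receptors to 71.3 and 70.3. Among the members, inhibitors thus stood above ligands in each library with Dkk3 counted, and below them in each library without it. Other secreted inhibitors are not members and not in these sums. Frzb was at 16.8 TPM in replicate 1 and 12.8 in replicate 2, Wif1 at 7.01 and 6.99, and Sfrp4 at 3.99 and 3.28. The ligands Wnt9b and Wnt8a, both below 1 TPM, are left out as well. The order without Dkk3 is therefore given for the members alone. Nuclear effectors came to 52.8 and 34.6 TPM, co-receptors and other Wnt receptors to 20.2 and 17.5, and R-spondins with their receptors to 17.5 and 15.8. Frizzled receptors summed above ligands in replicate 2 and below them in replicate 1. In bulk tissue, fewer cells of a type and less RNA per cell cannot be told apart.

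Next the 2 libraries were set against each other. The ratio is the log2 of replicate 2 over replicate 1 from counts scaled by TMM, a method that sets the scale from the bulk of genes, for the 42 members with a mean of 1 TPM or more. Members past 2-fold were Tcf7 and Wnt11, that is 2 of 42 or 4.76%, against 4.5% of all 16037 genes at that level and 1.51% of the 13843 protein-coding ones. With 2 genes the share is too small a count to read against either figure.

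Tcf7, a Tcf factor best known from T cells, had 142 counts in replicate 1 and 59 in replicate 2. It was 2.37-fold higher in replicate 1, with an exact 95% interval on the counts of 1.75 to 3.28. Wnt11 had 50 and 100 counts and was 2.01-fold higher in replicate 2, with an interval of 1.42 to 2.90. These intervals cover counting error only. Neither call held under every scaling: the log2 ratio of Tcf7 was -0.80 with spike-in totals, and that of Wnt11 was 0.99 with the size factors of DESeq2. Of the 42 members, Wnt1 stood just inside the limit, at 111 and 61 counts and 1.80-fold higher in replicate 1. Lef1 followed, at 935 and 539 counts and 1.72-fold higher in replicate 1. Tcf7 and Lef1 were thus the nuclear effectors with the largest ratios, and Tcf7l2 was 1.49-fold higher in replicate 1. Dkk1, left out at a mean of 0.975 TPM, had 76 and 39 counts and was 1.92-fold higher in replicate 1. Its deposited intervals, 1.00 to 1.58 and 0.460 to 0.862 TPM, were apart.

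Deposited intervals did not overlap between libraries for 18 of the 42 members, 42.9%, against 31.4% of protein-coding genes. Replicate 2 was the lower library in 15 of the 18, or 35.7% of 42, against 22.3% of protein-coding genes, and the higher one for Wnt11, Fzd3 and Gsk3b. The log2 ratio was below 0 for 30 of 42 members, 71.4%, against 53.1% of protein-coding genes. The median log2 ratio was -0.19 for the members and -0.02 for protein-coding genes. Scaling by the spike-in totals raised the ratios by about 0.45 on the log2 scale, so that 8 of 42 members, 19.0%, stayed below 0, against 5.48% of protein-coding genes, with a median of 0.26 for the members and 0.43 for protein-coding genes. The 8 were Tcf7, Lef1, Tcf7l2, Wnt1, Wnt4, Rspo1, Lrp5 and Fzd7.

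**Figure D2:**
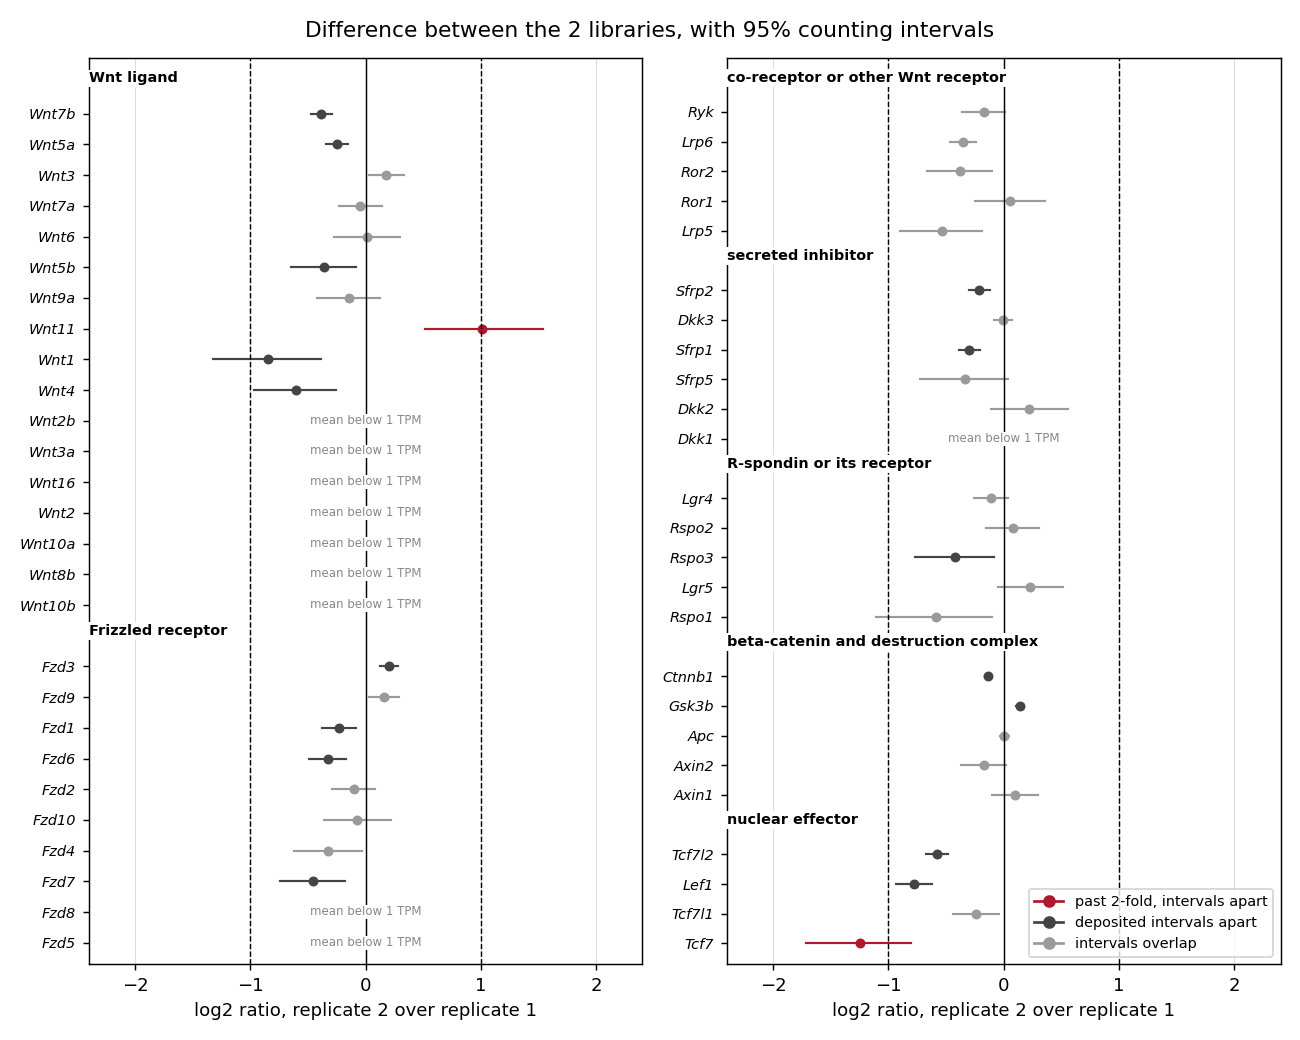
Log2 ratio of replicate 2 over replicate 1 for each member with a mean of 1 TPM or more, with exact 95% counting intervals as lines, 2-fold as dashed lines and colours for the 2 call rules. Tcf7 at -1.25 and Wnt11 at 1.01 lie past 2-fold, and all 4 nuclear effectors lie below 0, with Tcf7l1 at 0.21 when scaled by spike-in totals instead.

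By role, the median log2 ratio was -0.68 for the 4 nuclear effectors, -0.35 for the 5 co-receptors and other receptors, -0.21 for the 5 secreted inhibitors above 1 TPM and -0.20 for the 10 ligands above it. It was -0.17 for 8 Frizzled receptors, -0.11 for the R-spondin group and 0.00 for beta-catenin and the destruction complex. Effectors therefore had the lowest median, with values from -1.25 for Tcf7 to -0.24 for Tcf7l1.

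Marker genes of other tissues also differed between the libraries. All 8 forebrain markers were lower in replicate 2 by the TMM ratio, with sums of 24.1 TPM in replicate 1 and 6.0 in replicate 2, of which 5.64 came from Lhx2, and Emx1 was listed at 0 there. All 8 skeletal muscle and cartilage markers were lower too, with sums of 182 and 12.7 TPM. Meningeal fibroblast markers were lower in 8 of 8, at 807 and 460 TPM, while choroid plexus markers were lower in 2 of 8, at 1605 and 1966 TPM, or 182 and 191 without Ttr. Hindbrain Hox markers of the label's own tissue were above 1 TPM for 8 of 8 genes in both libraries, with sums of 256 and 282 TPM. Endothelial and pericyte markers were lower in replicate 2 for 6 of 8, at 290 and 269 TPM, neuronal markers for 1 of 6, at 2607 and 2605, and microglial markers for 1 of 5, at 77.4 and 83.1. Progenitor markers were lower for 3 of 6, at 2409 and 2910 TPM, or 569 and 512 without Fabp7. The part of these differences in the members' ratios was not tested.

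**Figure D3:**
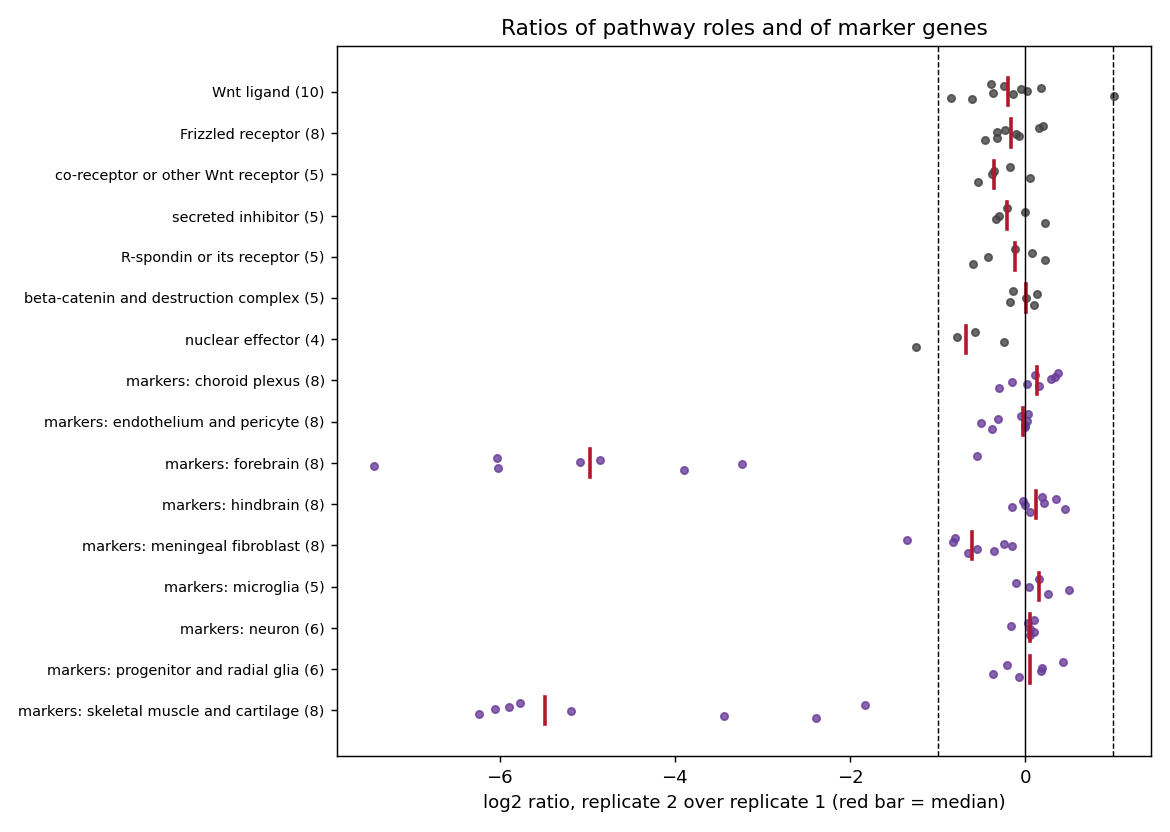
Log2 ratio of replicate 2 over replicate 1 for members by role, in grey, and for marker lists, in purple, with 1 point per gene, the number of genes in brackets, the median as a red bar and 2-fold as dashed lines. Forebrain and skeletal muscle and cartilage markers reach far below the members, with medians of -4.97 and -5.48, and the nuclear effectors have a median of -0.68.

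Every one of the 42 detected members had a protein-coding leading transcript, meaning the transcript with the highest mean share of the gene's TPM. Of these, 16 have 1 listed transcript. In 31 members coding transcripts held at least 90% of the TPM in both libraries, and in 6 they held under 75% in a library. In Wnt11 coding transcripts held 43.0% and 60.3%, or 0.52 and 1.35 TPM, and the rest came from transcripts annotated as targets of nonsense-mediated decay. In Apc they held 69.8% and 68.3%.

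The levels of some ligands depended on how counts were divided among transcripts. Wnt5a, at 20.3 and 14.9 TPM, was 1.19-fold higher in replicate 1 by scaled counts. Its coding transcripts held 80.7% of the TPM in replicate 1 and 95.2% in replicate 2, or 16.4 and 14.2 TPM. Wnt6 had 205 counts in each library, yet its TPM was 4.14 and 5.14, and in replicate 2 a retained-intron transcript of 920 bases was assigned 39.7 of them and in replicate 1 was listed at 0. Wnt7a had 494 and 474 counts, and a processed transcript of 250 bases, with 12.3 and 2.14 counts, held 34.3% of its TPM in replicate 1 and 8.44% in replicate 2. The coding transcript Wnt7a-201 alone was at 6.24 and 5.97 TPM, with intervals that overlapped between libraries. Those intervals, 5.57 to 6.66 and 5.30 to 6.35 TPM, lay below those of Wnt3, 8.39 to 9.74 and 9.24 to 10.6. In Wnt5b the leading transcript was Wnt5b-203 in replicate 1, at 3.64 TPM, and Wnt5b-202 in replicate 2, at 1.85 TPM. The deposited intervals of each Wnt5b transcript overlapped between libraries, so that change of leading transcript is not resolved.

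The exons printed above were used to different degrees. For Lgr4, transcripts with the 72-base exon held 36.5% of the TPM with or without it in replicate 1 and 10.2% in replicate 2, at 2.32 and 0.58 TPM, and the deposited intervals of Lgr4-201, 1.09 to 3.69 and 0.147 to 1.67, overlapped. The 84-base exon of Lef1 was included in 21.4% and 25.5% of the TPM, so the larger assigned share lacked it in both libraries. The deposited interval of the Lef1 transcript with the exon overlapped that of each transcript without it in both libraries. For Axin1 the 108-base exon was included in 81.7% and 89.7%, and most transcripts held it. The 42-base stretch of Tcf7l1 was included in 16.0% and 4.47%, and the intervals of the transcript that holds it overlapped between libraries. The Lrp6 form that skips the 394-base exon, Lrp6-203, is 722 bases long. It was assigned 9.14 and 18.06 of the gene's 1457 and 1130 counts. Its deposited intervals, 0.195 to 1.31 and 0.535 to 1.91 TPM, overlapped between libraries. Exon inclusion here rests on the authors' assignment of reads to transcripts, not on reads counted across junctions.

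**Figure D4:**
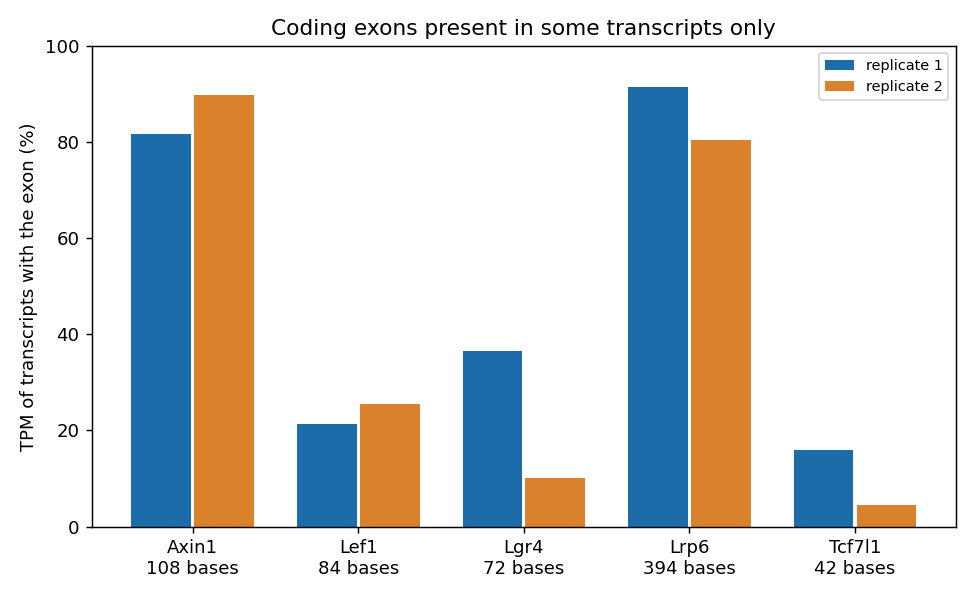
Share of TPM from transcripts that include a coding exon, as a percent of the TPM of transcripts that include or skip it, in replicate 1 and replicate 2, with the gene and the exon's length below. Lgr4 shows the widest gap between libraries, 36.5% against 10.2%. The Lrp6 exon of 394 bases, which is no multiple of 3, is included in 91.5% and 80.4%. The Lrp6 form that skips it rests on 9.14 and 18.06 counts.

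Tcf7 had 2 transcripts, Tcf7-201 and Tcf7-202, with coding sequences of 909 bases each. Tcf7-201 was at 1.82 and 0.87 TPM and Tcf7-202 at 0.81 and 0.13, and the deposited intervals were apart between libraries for each. The lower level of Tcf7 in replicate 2 was thus seen in both transcripts. Tcf7l2 had 22 listed transcripts, and Tcf7l2-209 led with 51.7% and 49.0% of the TPM. At 16.5 and 10.7 TPM, Tcf7l2-209 was lower in replicate 2, with intervals apart.

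The remaining genes of the pathway were taken from 8 lists with 58 genes that are not members, of which 52 reached 1 TPM in both libraries. None of the 52 was past 2-fold between libraries, against 1.51% of protein-coding genes. Deposited intervals were apart for 31 of the 52, against 31.4% of protein-coding genes. For 29 of the 52 they were apart and lower in replicate 2, against 22.3% of protein-coding genes. The median log2 ratio was -0.16. The highest of the cytoplasmic list was Csnk1a1, a casein kinase of the destruction complex, at 190 and 178 TPM. Among nuclear partners it was the corepressor Ctbp1, at 308 and 282 TPM. Wls, the carrier that brings Wnts to the cell surface, was at 55.9 and 43.1 TPM, and the polarity protein gene Vangl2 at 41.2 and 32.9.

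Tspan12, a partner of Fzd4 in Norrin signalling, led its list at 59.5 and 63.4 TPM, while Fzd4 itself was at 2.43 and 1.88. Draxin, an axon guidance molecule, led the list of receptor turnover genes and Dkk partners at 12.5 and 10.0 TPM. Frzb, another secreted Wnt antagonist, led the remaining family genes at 16.8 and 12.8. Myc led 10 known target genes, at 54.0 and 44.1 TPM, and Axin2, Lef1 and Lgr5 stand in that list as well as among the members. Genes with a mean below 1 TPM were Celsr1 at 0.85 and 0.54 TPM, Rnf43 at 1.18 and 0.59, Wnt9b, Rspo4 at 0.30 and 0.46, Wnt8a at 0.02 in both, and Dkk4, at 0.03 in replicate 1 and listed at 0 in replicate 2.

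Promoter windows from RefSeq on GRCm38.p6, 250 bases before to 50 after a start, were found for 36 of the 52 members, as 45 windows. The letters CTTTGA, the core to which Tcf and Lef proteins bind, occurred on either strand in 7 of the 45, or 15.6%, against 14.4% of 21262 protein-coding windows. TATAAA, which does not overlap it, occurred in 10 of 45, or 22.2%, against 12.6%. These matches describe the letters alone.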

How the data were processed

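RNA longer than 200 bases from 2 pools of embryonic mouse hindbrain was sequenced by the submitters. The authors quantified each library against mm10 with GENCODE M4, per the deposited notes. For the tool and its version: not given in the sources used here. Expected counts, fractional where reads were shared, stand for genes and for transcripts, per the file headers, and the deposited TPM and FPKM values correct them for length. Deposited interval bounds on TPM, treated as scores here, have no stated confidence level. Transcript shares are the deposited percent values. TPM lay within both intervals for 51 of 52 members. Features without an Ensembl gene identifier, spike-ins included, took 2.18% (replicate 1) and 1.59% (replicate 2) of all counts and stayed out of library sizes.

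Names, positions and transcript types came from GENCODE M21 on GRCm38, matched for 42462 of 43346 identifiers. Expected counts were rounded and scaled with TMM in edgeR 4.0.16 under R 4.3.3, with a prior count of 0.5. Size factors of DESeq2 1.42.0 were an alternative. Python 3.11.15 was used with SciPy 1.17.1, pandas 2.3.3 and matplotlib 3.10.9. Detection meant 1 TPM in both libraries. Intervals on ratios are exact Clopper-Pearson intervals at 95%, for counting error only. edgeR's common coefficient of variation between libraries was 15.7% over 17947 genes. On simulated counts for 43346 genes, the ratio step placed 100% of genes changed 4-fold, 53% of those changed 2-fold and 1.43% of unchanged genes past 2-fold. Coding exons were compared between transcripts with at least 10% of a gene's TPM and equal length in both annotations.

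The members, gene lists and rules were chosen with earlier results of these data known. Every member is named. The 3 highest of each role, members past 2-fold or with intervals apart, those of the transcript description and neighbouring Wnt genes have values per library. Of other pathway genes the highest of each list, those past 2-fold, those below 1 TPM and, beside the inhibitor sums, Wif1 and Sfrp4 are named. The named marker genes and overlapping genes were picked with their values in view. The value of 1 marker gene enters the sum and count of its list and is not reported here. Alternatives covered the detection minimum, unit, coding transcripts, scaling, prior count, filters, interval type and each replicate left out. Protein sequences were not used here.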

Additional observations from a re-analysis of the deposited data

How the results depend on the processing

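Over 12 results, 38 of 48 alternative values stayed near the main value, meaning within 1.5 times for a count and within 1 SD of the replicates for a share, a narrow limit where the replicates lie close. Deposited FPKM gave 33 members detected in place of 42, a minimum of 5 TPM gave 23, a minimum of 0.5 TPM 45 and coding transcripts alone 41. DESeq2's size factors, total counts, a prior count of 2 and the ratio of deposited TPM each left 1 member past 2-fold, Tcf7, and spike-in totals left 1, Wnt11, so neither call held under all scalings. With protein-coding transcripts alone the Frizzled share of the members' TPM was 10.1% in place of 9.47%, that of R-spondins and their receptors 2.24% in place of 2.22%, that of co-receptors 2.38% in place of 2.51% and that of secreted inhibitors 13.7% in place of 12.9%. With counting intervals in place of the deposited ones, 18 members again had intervals that did not overlap between libraries. Of these 16 were shared, with Lrp6 and Lrp5 in place of Rspo3 and Wnt5b. The exact counting intervals on the ratio, a less strict rule, excluded equality for 26 of the 42 members, with 21 of them lower in replicate 2. They cover counting error only. Leaving out each replicate gave 42 to 43 members detected, 27 to 28 of 45 neighbour steps separated against 23 with both, and 42 coding leading transcripts. Ratios between libraries need both replicates, so none could be left out there. No paired analysis was possible because there is 1 group. Ratios of ligands near 1 TPM, such as Wnt11 with 50 counts in replicate 1, are limited by depth.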
